A study of Mus musculus with 3 samples.

Results

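Genes whose products catch leukocytes on the inner face of vessels were followed through single cells of the mouse iridocorneal angle and limbus, the ring of tissue that drains aqueous humor from the eye. The genes were Selp, Sele, Icam1, Icam2, Vcam1, Vwf, Pecam1 and Ackr1, 8 of the 31053 genes in the count matrices, and they were chosen by name. All 8 were found in the files. The droplet libraries came from 2 pools of control mice (Angpt1 flox/flox) and 1 pool of Angpt1ΔNC mice (Angpt1 flox/flox;Wnt1Cre+), so that every animal carried the floxed alleles and the single difference by label was the Cre transgene. Wnt1-Cre removes Angpt1 in neural crest cells, which form the trabecular meshwork and uveal stroma, and endothelium is not among the cells it targets. Mice were 6 weeks old, of mixed strain after crossing onto ICR, and each library pooled the eyes of 2 to 3 animals, of mixed sex by the study's methods. Each kept cell carries a cluster label given by the authors. SC stands for Schlemm's canal endothelium, LEC for lymphatic endothelium, EC2 to EC4 for the other endothelial groups, TM1 to TM11 for stromal groups, and plain numbers for the remaining clusters.

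As background, leukocytes leave blood in steps. Selectins on the vessel wall slow the passing cell, chemokines held on the endothelial surface activate its integrins, ICAM and VCAM proteins then hold it, and junction proteins such as PECAM1 guide it between endothelial cells. P-selectin waits together with von Willebrand factor in storage granules of endothelium, the Weibel-Palade bodies, and ACKR1, a receptor that binds chemokines without signalling, is known from venules where leukocytes leave. Schlemm's canal is a vessel with blood and lymphatic features that carries aqueous humor.

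The kept cells numbered 9076 and 10160 in the controls and 6772 in Angpt1ΔNC, with 66484181 to 80346829 unique molecular identifiers (UMIs) per library and a median of 6329.5 to 7444 UMIs per cell. Angpt1, the targeted gene, was found in 17.2% and 17.3% of control cells and in 0.340% of Angpt1ΔNC cells. Xist stood at 6.52 per 10,000 UMIs in Angpt1ΔNC and at 3.90e-04 and 2.49e-04 in the controls, so female cells were seen in the Angpt1ΔNC pool and hardly or not in the control pools, and effects of sex and genotype cannot be told apart. Pairs of libraries shared 13 to 25 cell barcodes, at most 0.275% of the smaller library. Endothelial cells with a label numbered 295, 327 and 209 in control 1, control 2 and Angpt1ΔNC, of which 46, 63 and 15 were SC cells. All 6 endothelial markers were detected in SC, EC2, EC3 and EC4 of every library. The Schlemm's canal markers Prox1, Ccl21a, Nupr1 and Pgf summed to 146, 120 and 62.4 UMIs per 10,000 in SC of the 3 libraries and to at most 12.4 in EC2 to EC4. LEC held 3, 1 and 12 cells, too few for a level of its own. In these LEC cells the same canal markers summed to 466, 276 and 244, above SC in each library. The list thus sets SC apart from EC2 to EC4 but not from LEC.

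Selp and Sele, the P- and E-selectin genes, lie side by side on chromosome 1 of GRCm38, Sele at 164048234 to 164057677 and Selp at 164115264 to 164150026 on the plus strand, with starts 67030 bases apart. Icam1 lies on chromosome 9 at 21015985 to 21028817, Icam2 on chromosome 11 at 106377656 to 106388075, Pecam1 on chromosome 11 at 106654217 to 106750628, Vcam1 on chromosome 3 at 116109949 to 116129688 and Vwf on chromosome 6 at 125546774 to 125686679. Ackr1, on chromosome 1 at 173331886 to 173333750, shares 493 bases on the same strand with Cadm3, a gene for a neural adhesion protein. Annotated antisense genes lie over Selp, Icam1 and Vcam1, and each held 21 to 39 UMIs in all kept cells. All 8 are protein-coding. The RefSeq promoter table for GRCm38.p6, from 250 bases before to 50 after each start, held 4 of the 8. The 3 of Sele, Selp and Icam1 are printed here because these genes changed together in stroma, as given below, and capitals mark every match to the motifs searched on both strands.
Sele, chr1:164047984-164048283, plus strand: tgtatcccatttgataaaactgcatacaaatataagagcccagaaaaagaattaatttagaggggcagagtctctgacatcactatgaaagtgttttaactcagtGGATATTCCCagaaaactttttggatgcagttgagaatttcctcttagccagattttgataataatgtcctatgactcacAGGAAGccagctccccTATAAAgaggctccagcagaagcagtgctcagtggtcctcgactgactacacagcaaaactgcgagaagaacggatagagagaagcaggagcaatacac
Selp, chr1:164115014-164115313, plus strand: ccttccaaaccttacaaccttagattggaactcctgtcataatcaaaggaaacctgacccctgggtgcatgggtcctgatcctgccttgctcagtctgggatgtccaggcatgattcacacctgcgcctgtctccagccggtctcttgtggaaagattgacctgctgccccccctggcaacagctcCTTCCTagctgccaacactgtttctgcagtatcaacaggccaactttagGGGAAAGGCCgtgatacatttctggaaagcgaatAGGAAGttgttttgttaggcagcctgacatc
Icam1, chr9:21015690-21015989, plus strand: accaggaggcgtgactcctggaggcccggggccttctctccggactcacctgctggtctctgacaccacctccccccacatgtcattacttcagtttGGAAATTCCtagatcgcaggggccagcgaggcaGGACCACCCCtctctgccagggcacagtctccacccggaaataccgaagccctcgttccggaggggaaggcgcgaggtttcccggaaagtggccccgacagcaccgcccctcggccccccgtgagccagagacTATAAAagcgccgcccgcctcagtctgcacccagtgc
The strict kappaB motif (GGG, any 2 bases, TT, any base, CC), found in 4.79% of 32851 promoters, had no match in these 3 windows or in that of Ackr1. The palindromic form GGAANTTCC, found in 0.928% of promoters, matched 153 bases before the RefSeq start of Icam1. That start, at 21015940, differs from the GENCODE start given above. The loose form (GGG, any 5 bases, CC), which includes every match of the strict one and is found in 50.8% of promoters, matched once in each of the 3. An ETS core AGGAAG, in 35.4% of promoters, matched in Sele and Selp, and TATAAA, in 13.6%, in Sele and Icam1. The TATAAA of Icam1 lies 13 bases after its RefSeq start. These matches describe letters in a window and no binding was measured.

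Selp was the member most restricted to 1 label. Its level, the mean over cells of UMIs per 10,000, was 16.3 in SC of control 1, 21.2 in SC of control 2 and 44.6 in SC of Angpt1ΔNC. The next label was EC2, with Selp levels of 3.15, 5.21 and 2.16, and its range did not meet that of SC. LEC aside, the order below EC2 could not be told from the spread between libraries, with Selp levels in TM7 of 1.08, 1.00 and 0.174, in EC4 of 0.962, 0.176 and 0.573, and in EC3 of 0.162, 0.267 and 0.283. Cells with a Selp UMI made up 73.9% of SC in control 1 (exact Clopper-Pearson 95% interval 58.9 to 85.7), 82.5% in control 2 (70.9 to 90.9) and 86.7% in Angpt1ΔNC (59.5 to 98.3). After each cell was thinned to 2000 UMIs these shares were 52.2%, 58.3% and 86.7%. Clusters 4 and 5 are limbal and corneal epithelium, which should lack the gene and so reads out free RNA. There Selp was found in 0.202% to 0.494% of cells at a median of 15135 to 17717 UMIs, against 6505 to 8895 UMIs in SC. All intervals cover counting error only. Cells of 1 label come from clustering these same cells, so levels between labels are described and not tested.

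**Figure D1:**
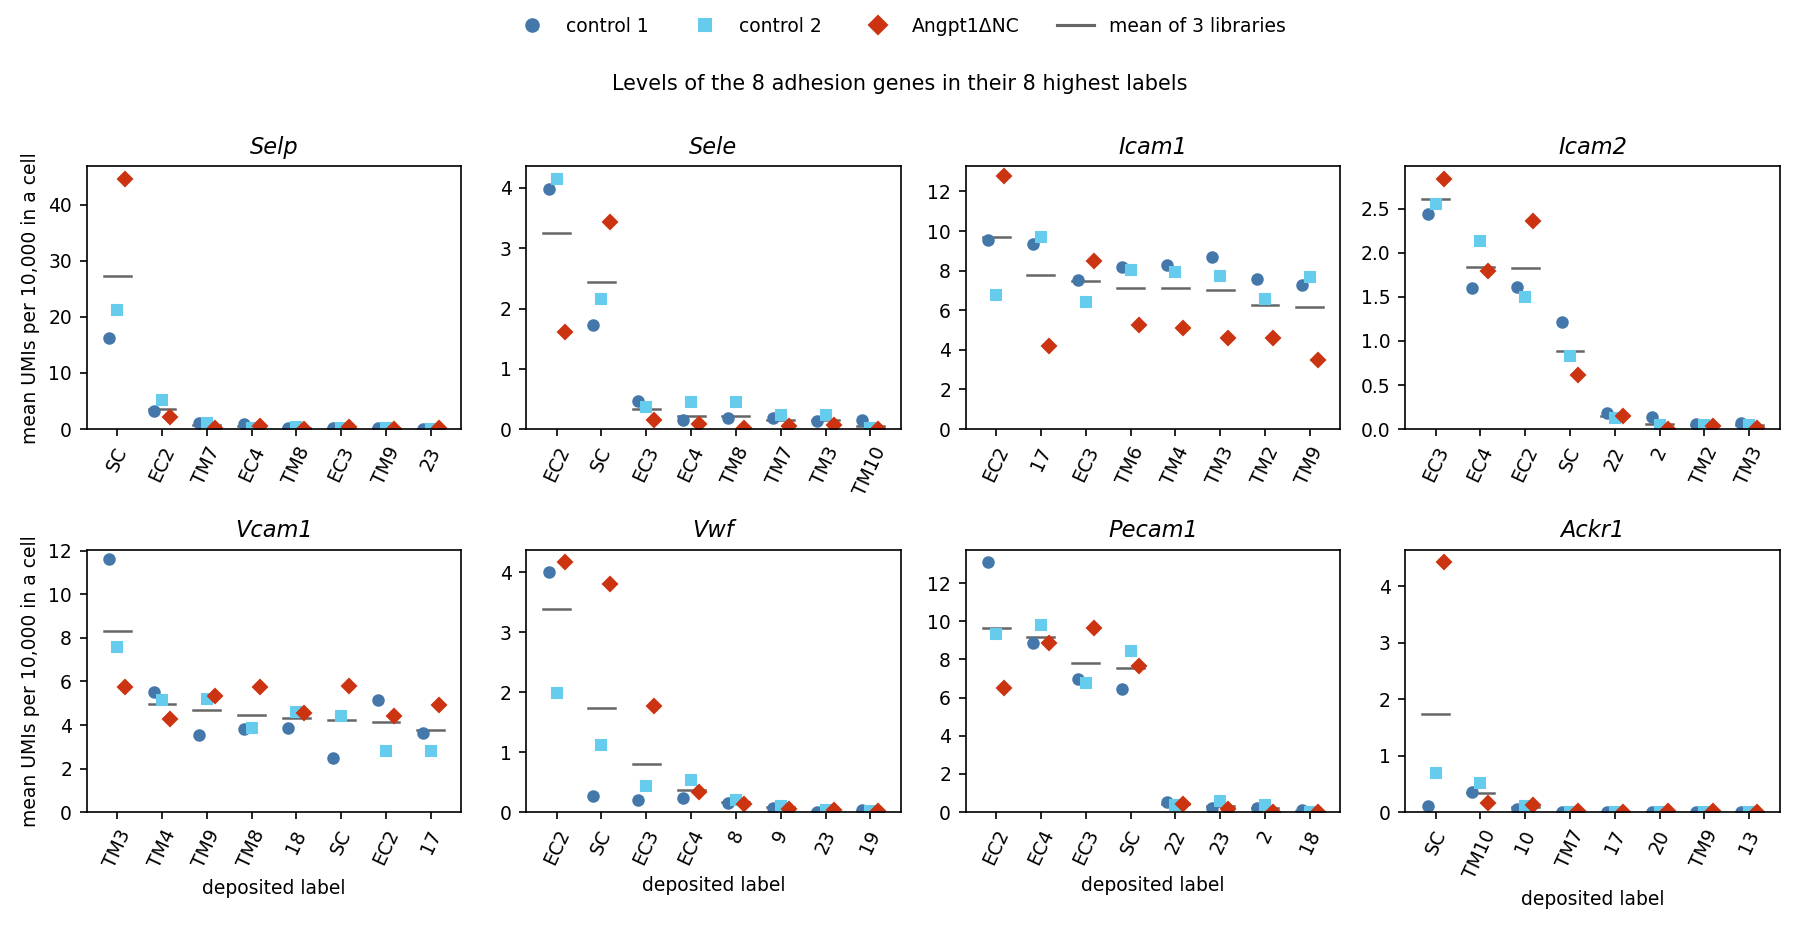
Level of each of the 8 genes (vertical axis, mean over cells of UMIs per 10,000, a separate scale for each gene) in the 8 labels where it was highest (horizontal axis), with a point for each library and a bar for the mean of the 3. Selp stands apart in SC at 16.3 to 44.6, Icam2 and Pecam1 are high in the 4 endothelial labels, and Icam1 and Vcam1 are as high in stromal labels as in endothelium.

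Sele, which encodes E-selectin, an endothelial adhesion protein made on inflammatory stimulation, was highest in EC2 with levels of 3.99, 4.15 and 1.61. SC followed at 1.72, 2.16 and 3.44, and the ranges of both labels overlapped, since in controls the EC2 values were the higher ones and in Angpt1ΔNC the SC value was. EC3 was lower, with Sele levels of 0.463, 0.370 and 0.143. Sele was found in 46.9%, 68.4% and 32.4% of EC2 cells and in at most 0.101% of cells of clusters 4 and 5. Thinned to 2000 UMIs, the EC2 shares were 35.7%, 39.5% and 21.2%.

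Ackr1 was found in SC and in none of the other labelled endothelial cells. In SC its level was 0.116, 0.686 and 4.43, resting on 3, 42 and 44 UMIs in 2, 8 and 4 cells. A single Angpt1ΔNC cell held 25 of the 44 UMIs, and without it the Angpt1ΔNC level was 2.00. EC2 held no Ackr1 UMI in 32, 38 and 37 cells, which allows shares of cells with a UMI of up to 9.38%, 7.89% and 8.11%, and EC3 and EC4 held none in 118, 118 and 58 and in 96, 107 and 87 cells, which allows up to 5.17% in the least filled library. These limit cells with a UMI, not cells that express the gene at a low level. A second site of Ackr1 UMIs was the stromal label TM10, at 0.359, 0.510 and 0.168, where 38, 39 and 27 cells were positive. There the overlapping gene Cadm3 was found in 71.2% of cells with an Ackr1 UMI and in 48.1% of the others, so reads of both genes cannot be told apart and Ackr1 in TM10 is uncertain. In SC only 1 of the 14 Ackr1-positive cells had a Cadm3 UMI.

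Vwf, which encodes the platelet-binding glycoprotein that fills Weibel-Palade bodies, was led by EC2 with levels of 4.01, 1.99 and 4.17. SC gave 0.274, 1.12 and 3.80, EC3 0.206, 0.436 and 1.77, and EC4 0.240, 0.536 and 0.329. The ranges of neighbouring labels in this order overlapped down to EC4. Cells with a Vwf UMI made up 78.1%, 65.8% and 81.1% of EC2 and 0.0988% to 0.708% of clusters 4 and 5. Endothelium held 33.5% and 45.6% of all Vwf UMIs in controls and 66.3% in Angpt1ΔNC, so most control Vwf UMIs lay in other cells. Outside endothelium, cluster 8 had levels of 0.161, 0.201 and 0.139 with positive cells at 119 of 839, 118 of 767 and 58 of 442, and its range lay below that of EC4.

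Icam1, the integrin ligand that holds neutrophils and T cells, was broad. Its levels in EC2 were 9.54, 6.78 and 12.8, in EC3 7.54, 6.43 and 8.47, in SC 3.43, 3.60 and 5.89 and in EC4 4.33, 4.37 and 1.03. Cluster 17 reached 9.37, 9.71 and 4.21 and TM3 8.71, 7.71 and 4.59, so that stromal cells were level with endothelium, and the first 8 labels in the order overlapped in their ranges with their neighbours. Endothelium held 5.51% to 8.73% of all Icam1 UMIs and stroma 45.5% to 54.1%. Icam1 was also present in 49.7% to 55.1% of cells of clusters 4 and 5, at levels of 0.740 to 0.883, so these clusters give no reading of free RNA for it.

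Icam2, an integrin ligand kept on resting endothelium, and Pecam1, the junction protein CD31, followed endothelium as a whole. Icam2 was highest in EC3 at 2.44, 2.55 and 2.84, a range that lay above those of EC4 (1.60, 2.13 and 1.80) and EC2 (1.61, 1.5 and 2.36), which overlapped each other, and SC was lowest of the 4 at 1.22, 0.835 and 0.614. Pecam1 was 13.1, 9.32 and 6.50 in EC2, 8.87, 9.80 and 8.85 in EC4, 7.0, 6.78 and 9.65 in EC3 and 6.46, 8.44 and 7.68 in SC, with no gap between neighbours. Endothelium held 84.0% to 86.1% of Icam2 UMIs and 93.5% to 95% of Pecam1 UMIs. T cells of cluster 22 were the next label with data from 3 libraries, at 0.124 to 0.178 for Icam2 and 0.361 to 0.528 for Pecam1.

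Vcam1, the ligand of integrin VLA-4 on lymphocytes and monocytes, was foremost a stromal transcript here. TM3 had the highest mean over the libraries, with levels of 11.6, 7.57 and 5.73. Its range lay above that of TM4 but overlapped those of TM8 (3.81 to 5.74) and SC (2.51 to 5.78). The stroma held 48.7% to 66.3% of Vcam1 UMIs against 2.37% to 2.94% in endothelium. Within endothelium Vcam1 split the labels. It was 2.51, 4.41 and 5.78 in SC and 5.15, 2.82 and 4.42 in EC2, but 0.0620, 0.0702 and 0.210 in EC3 and 0.0792, 0.0284 and 0.700 in EC4. In EC4 of Angpt1ΔNC 1 cell held 38 of 57 UMIs, and without it the level was 0.285.

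Counted per cell, SC and EC2 carried the most members at once. A mean of 4.04, 3.81 and 5.33 of the 8 genes was detected per SC cell, 4.50, 4.58 and 4.11 per EC2 cell, 3.06, 3.25 and 3.47 per EC3 cell and 2.35, 2.42 and 2.20 per EC4 cell. In EC2, over the 3 libraries, Sele was found in 30 of 35 cells with Selp and in 23 of 72 without. After thinning the counts were 10 of 20 and 22 of 79, so the contrast was smaller at equal depth. In SC, Sele was found in 53 of 99 cells with Selp and 6 of 25 without, and Vcam1 in 52 of 99 and 5 of 25. After thinning the counts in SC were 22 of 72 and 8 of 49 for Sele and 21 of 72 and 6 of 49 for Vcam1. The authors describe EC2 as venous and EC4 as arterial in phenotype, and the vessel type of EC2 was also read here from markers. Its 6 arterial markers summed to 5.45, 4.26 and 5.86 per 10,000, above the 1.25 to 1.55 of SC and below the 7.54, 6.52 and 8.29 of EC4. Its 2 venous markers gave no common reading. Nr2f2 was at 0.214, 0.147 and 0.0505 in EC2 and higher in SC, at 0.774, 0.760 and 1.39, while Ephb4 was at 0.173, 0.465 and 0.377 in EC2 and at 0.471, 0.341 and 0.324 in SC.

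SC cells differed among themselves along Vwf. Vwf was found in 4 of 46, 14 of 63 and 10 of 15 SC cells of control 1, control 2 and Angpt1ΔNC. All 28 of these cells had Selp, with levels of 91.4, 51.5 and 56.6, against 9.14, 12.5 and 20.5 in SC cells without Vwf, so Selp was higher beside Vwf in each library. Their median depth was 6228 UMIs against 8651, so the Vwf-positive cells were not the deeper ones. Both proteins are stored in the same granule, as background. The 14 Ackr1-positive SC cells all had Selp and Sele, and 9 of them had Vwf. Ccl21a, a lymphatic chemokine used as a canal marker, went the other way. Among SC cells with a Ccl21a UMI 3 of 57 had Vwf and 2 of 57 had Ackr1, and among those without 25 of 67 and 12 of 67. Prox1 was found in 66.7% of the former and 20.9% of the latter. The median depth was 12590 UMIs in cells with Ccl21a and 5939 in those without, and its part in these shares was not tested. Selp levels were 11, 6.00 and 18.6 in SC cells with Ccl21a and 27.2, 30.5 and 48.6 in those without. The Ccl21a-positive share of SC was 67.4% and 38.1% in controls and 13.3% in Angpt1ΔNC, so the 15 Angpt1ΔNC cells were for the most part of the second kind.

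**Figure D2:**
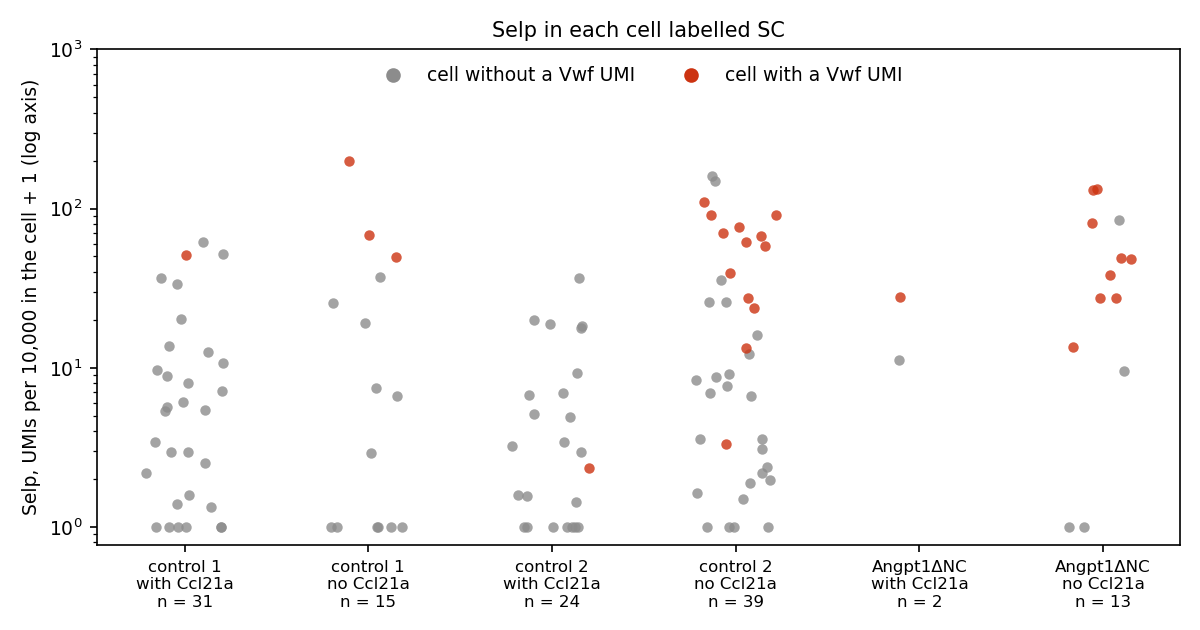
Selp in each SC cell (vertical axis, UMIs per 10,000 in the cell plus 1, log axis), by library and by presence of a Ccl21a UMI (horizontal axis, n is the number of cells), with cells holding a Vwf UMI in red. All 28 red points lie above the floor of 1 that marks cells without Selp, and 25 of them fall in the columns without Ccl21a.

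The question put to the genotypes was whether the vessels differ when their neural crest surroundings cannot make Angpt1, a ligand that keeps endothelium quiescent. UMIs of each cell class were summed per library and compared with edgeR's quasi-likelihood test with Benjamini-Hochberg adjustment over all genes, 2 control libraries against 1, where the lone Angpt1ΔNC library is assumed to vary like the controls. The only replicate spread behind the p-values is that between the 2 control libraries, and none among Angpt1ΔNC pools was measured. In all endothelium 4 of the 8 genes rose and none fell, where 8.12% of 9660 tested genes rose and 4.82% fell. The label mix of this class differed between libraries. EC2 made up 10.8%, 11.6% and 17.7% of endothelial cells in control 1, control 2 and Angpt1ΔNC, and SC 15.6%, 19.3% and 7.18%. The sums do not hold this mix equal. With SC, EC2, EC3 and EC4 weighted equally, the genes called higher kept their direction, but such fold changes carry no test. The part of the mix in the calls for all endothelium was not tested. In SC 3 of 8 rose and none fell, against 1.81% and 1.22% of 6397 genes (3.03% in either direction). In EC2 1 of 7 rose and none fell, against 3.36% and 2.00% (5.36%). In EC3 3 of 7 rose and none fell, against 4.85% and 2.45% (7.30%). In EC4 1 of 7 rose and 1 fell, against 2.14% and 0.807% (2.95%). Ackr1 had no UMIs in EC2 to EC4 and was not tested there. In stroma 3 of 8 fell and none rose, against 5.52% and 3.46% of 13942 genes (8.97%). In clusters 4 and 5, where 3 members were tested, none passed (2.81% of genes rose and 2.91% fell, 5.72% in all, with 2846 genes at an unadjusted p under 0.05). DESeq2 gave an adjusted p for Icam1 alone there, and it did not pass (1.00).

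**Figure D3:**
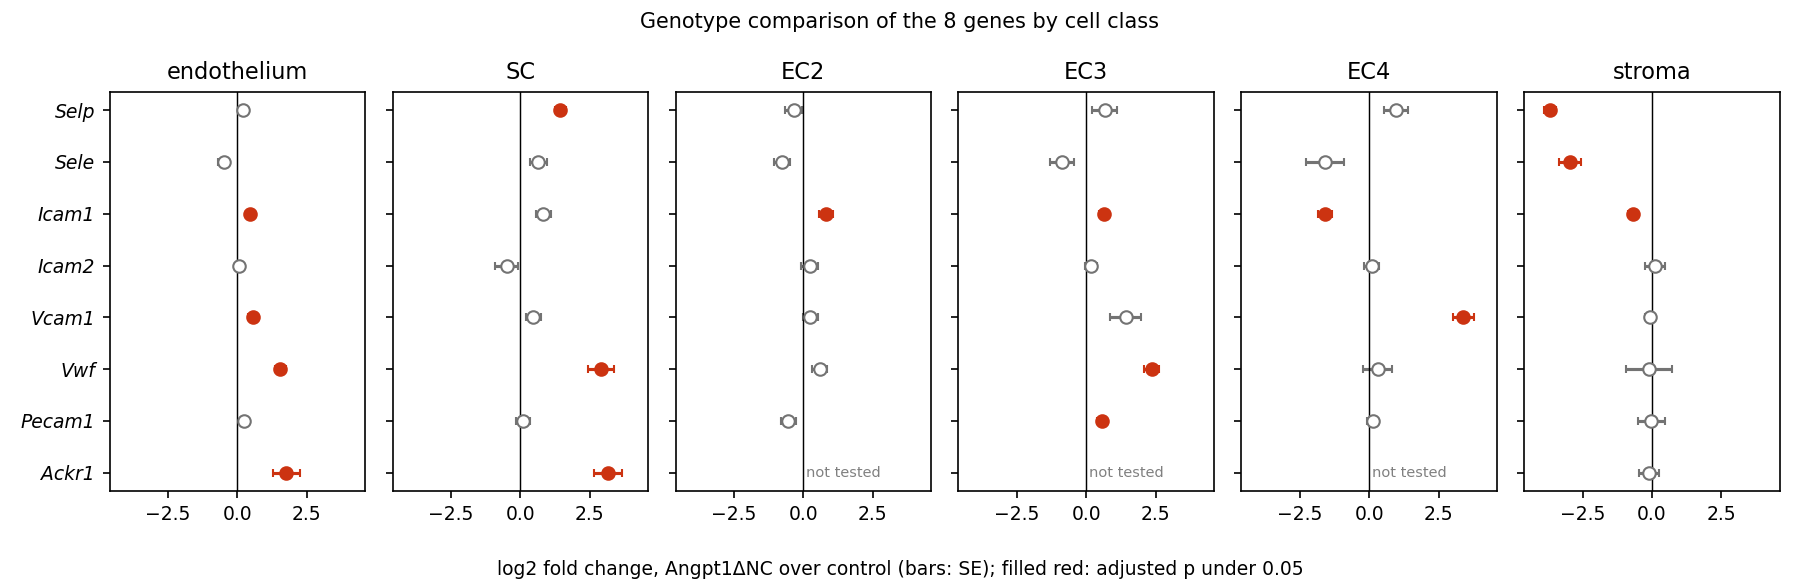
Log2 fold change of Angpt1ΔNC over control (horizontal axis) for the 8 genes (vertical axis) in 6 cell classes, with bars for the standard error and filled red points where the adjusted p was under 0.05. Vwf is to the right of 0 in all 5 endothelial panels and Selp, Sele and Icam1 are to the left in stroma.

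Selp rose in SC. The summed counts were 662, 1051 and 512 UMIs from 46, 63 and 15 cells, and the levels given above put the Angpt1ΔNC library above both controls. The log2 fold change was 1.44 ± 0.20 (SE, edgeR adjusted p = 8.4e-05). The call was lost with equal numbers of cells (0.99, adjusted p = 0.052) and among SC cells without Ccl21a (0.86, adjusted p = 0.096), an alternative chosen after seeing the data. The summed canal markers fell beside it from 146 and 120 to 62.4 per 10,000, and the summed endothelial markers stood at 60.0, 54.5 and 35.7. The part of these markers in the Selp result was not tested. In EC2 the mean level over cells was below both controls, but by summed counts (51, 169 and 87 UMIs) Angpt1ΔNC lay between them. The log2 fold change there was -0.35 ± 0.29 (adjusted p = 0.63), and 0.23 without control 2. In EC4, with 43, 15 and 55 UMIs, Selp did not pass (0.97 ± 0.42, edgeR adjusted p = 0.29), and its mean level lay between the controls. It passed there with equal numbers of cells (1.15, adjusted p = 0.0080). It also passed without each library's highest Vcam1 cell (1.21, adjusted p = 0.0042), an alternative chosen after seeing the data. In endothelium as a whole the log2 fold change was 0.20 ± 0.17 (adjusted p = 0.49), and it turned to -0.68 (adjusted p = 0.0044) when endothelium was taken as all cells with both Cdh5 and Cldn5.

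Sele did not pass the test in any endothelial class. Its level was below both controls in EC2, EC3 and EC4 and above both in SC, with log2 fold changes of -0.77 ± 0.30 (adjusted p = 0.13), -0.86 ± 0.43 (0.26), -1.59 ± 0.68 (0.28) and 0.65 ± 0.31 (0.36) by edgeR. Summed over endothelium it had 216, 334 and 113 UMIs and a log2 fold change of -0.49 ± 0.20 (adjusted p = 0.12), which passed among cells with Cdh5 and Cldn5 (-0.66, adjusted p = 0.030).

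Vwf rose in endothelium. Its level over all endothelial cells was 0.638 and 0.781 in controls and 1.64 in Angpt1ΔNC, above both, and its log2 fold change was 1.55 ± 0.19 (edgeR adjusted p = 1.6e-07). In EC3, where Vwf was found in 15.3% and 23.7% of control cells and 62.1% of Angpt1ΔNC cells (4.31%, 10.2% and 26.3% after thinning), the log2 fold change was 2.37 ± 0.27 (adjusted p = 4.4e-08). Both calls held under each alternative that gave a test. In SC the summed Vwf counts were 6, 40 and 38 UMIs and the log2 fold change was 2.91 ± 0.47 (adjusted p = 4.9e-04), which fell to 1.69 (adjusted p = 0.10) among cells without Ccl21a and ranged from 2.14 to 4.13 without one control. DESeq2 gave no adjusted p for Vwf or Ackr1 in SC, and its unadjusted values were 0.077 and 0.13. In EC2 and EC4 the log2 fold changes of 0.59 ± 0.28 (adjusted p = 0.28) and 0.31 ± 0.52 (0.81) did not pass. Platelets, which carry the protein, were read by 7 markers, which summed to at most 0.887 per 10,000 in any of SC, EC2, EC3 and EC4, with Gp1bb at 0 in all of them.

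Ackr1 rose in SC, with a log2 fold change of 3.15 ± 0.51 (edgeR adjusted p = 4.9e-04) from the 3, 42 and 44 UMIs given above. The controls lay far apart, and the log2 fold change was 4.90 without control 2 and 2.28 without control 1. Among cells with both Cdh5 and Cldn5, Ackr1 had 2, 31 and 0 UMIs, so no Angpt1ΔNC cell with Ackr1 carried both endothelial markers. Since no other endothelial label held Ackr1, its rise in endothelium, 1.77 ± 0.47 (adjusted p = 0.0086), was the same cells counted again, and DESeq2 did not call it (1.86, adjusted p = 1.00).

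Icam1 went up in some vessels and down in others. In EC2 it had 217, 216 and 437 UMIs and rose by 0.83 ± 0.26 (log2, edgeR adjusted p = 0.030), and in EC3, with 752, 791 and 442 UMIs in fewer cells, by 0.63 ± 0.17 (adjusted p = 0.018). In EC4 it fell by 1.58 on the log2 scale (SE 0.25, adjusted p = 0.0081) from levels of 4.33 and 4.37 to 1.03, and its share of EC4 cells was 66.7% and 66.4% in controls and 34.5% in Angpt1ΔNC, or 42.4%, 47.9% and 12.3% after thinning. The fall in EC4 held under each alternative that gave a test. The rises in EC2 and EC3 were lost with DESeq2 (adjusted p = 1.00 and 0.26), and that in EC2 also with equal numbers of cells (0.69, adjusted p = 0.11). Over all endothelium Icam1 was called higher (0.45 ± 0.15, adjusted p = 0.046), although the mean level over cells in Angpt1ΔNC, 5.82, lay between those of the controls, 6.00 and 5.24, and the call was lost with DESeq2 (0.33), without a filter on low counts (0.064) and in EC2 to EC4 alone (0.28). A list of 12 genes that respond to cell dissociation summed to 84.3, 60.0 and 64.1 per 10,000 in EC4, 74.3, 58.9 and 80.5 in EC2 and 89.6, 70.7 and 63.9 in EC3, and its part in Icam1 was not tested.

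Vcam1 rose in EC4, from 5 and 6 UMIs to 57, by 3.39 ± 0.38 (log2, edgeR adjusted p = 0.0015). The cells behind it numbered 4, 3 and 6, and without the highest cell of each library the rise was 2.90 (adjusted p = 0.018). In endothelium as a whole its levels were 1.000, 1.21 and 1.55 and its log2 fold change 0.55 ± 0.17 (adjusted p = 0.023), lost with DESeq2 (0.52) and in cells with Cdh5 and Cldn5 (0.084). Pecam1 rose in EC3 (0.56 ± 0.17, adjusted p = 0.032), a call lost with DESeq2 (0.34) and without a filter on low counts (0.058), and in EC2 it was below both controls at -0.54 ± 0.27 (adjusted p = 0.31). Icam2 passed in no class. Its log2 fold change was 0.06 ± 0.16 in endothelium (adjusted p = 0.86) and -0.49 ± 0.42 in SC (adjusted p = 0.68).

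A part of Selp and Sele lay outside vessels. In controls 39.7% and 33.9% of all Selp UMIs came from stromal labels, in Angpt1ΔNC 4.77%. Selp-positive cells made up 117 of 667 and 136 of 739 TM7 cells in controls and 10 of 174 in Angpt1ΔNC, with up to 24, 31 and 8 UMIs in a cell. These shares of 17.5%, 18.4% and 5.75% were above the 0.202% to 0.494% of clusters 4 and 5 in each library. In TM8 they were 5.92%, 9.48% and 3.23%. The 6 endothelial markers summed to 2.09 per 10,000 in Selp-positive TM7 cells and 1.59 in the others in control 1, to 1.45 and 1.29 in control 2 and to 1.75 and 0.891 in Angpt1ΔNC, far below the 35.7 to 110 of SC, EC2, EC3 and EC4. Sele was found in 2.85%, 3.65% and 1.72% of TM7 cells and 3.89%, 4.41% and 0.645% of TM8 cells. In controls Sele was found in 4.27% and 2.94% of TM7 cells with Selp and in 2.55% and 3.81% of those without, with no common direction. In TM8 both controls went the same way, with Sele in 11.4% and 10.3% of cells with Selp and in 3.42% and 3.79% of those without, on 4 and 6 cells with both genes. No Angpt1ΔNC cell of TM7 or TM8 had both.

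Both selectins fell in the stroma of Angpt1ΔNC. Stromal Selp levels were 0.327, 0.326 and 0.0230, with a log2 fold change of -3.67 ± 0.22 (edgeR adjusted p = 4.6e-05), and stromal Sele levels were 0.108, 0.160 and 0.0157, with -2.96 ± 0.39 (adjusted p = 0.0030). The Angpt1ΔNC library was below both controls for each. TM7 was 23.8% and 22.2% of stromal cells in controls and 8.94% in Angpt1ΔNC, and TM8 21.1%, 18.4% and 7.97%, so the labels richest in Selp were a smaller part of the Angpt1ΔNC sum. Within TM7 alone Selp fell by 2.38 on the log2 scale (adjusted p = 0.0017) and within TM8 alone by 2.21 (adjusted p = 0.046), while Sele missed the threshold in both (-2.30, adjusted p = 0.056, and -3.74, 0.058). With all TM labels weighted equally in each library the log2 fold changes were -2.19 for Selp and -1.79 for Sele. Icam1 fell in stroma from levels of 6.32 and 6.36 to 3.77 (-0.70 ± 0.15, adjusted p = 0.024) and was below both controls in 10 of 11 TM labels, TM1 being the exception. Within TM8 alone it did not pass (-0.45, adjusted p = 0.25). The dissociation list summed to 63.1, 53.7 and 43.7 per 10,000 in stroma, and its part in Icam1 was not tested. Vcam1 did not pass in stroma (-0.09 ± 0.15, adjusted p = 0.76) but was higher in TM7 and TM8 taken alone (0.82, adjusted p = 0.024, and 0.71, 0.048). The alternatives by TM label were chosen after seeing the data.

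**Figure D4:**
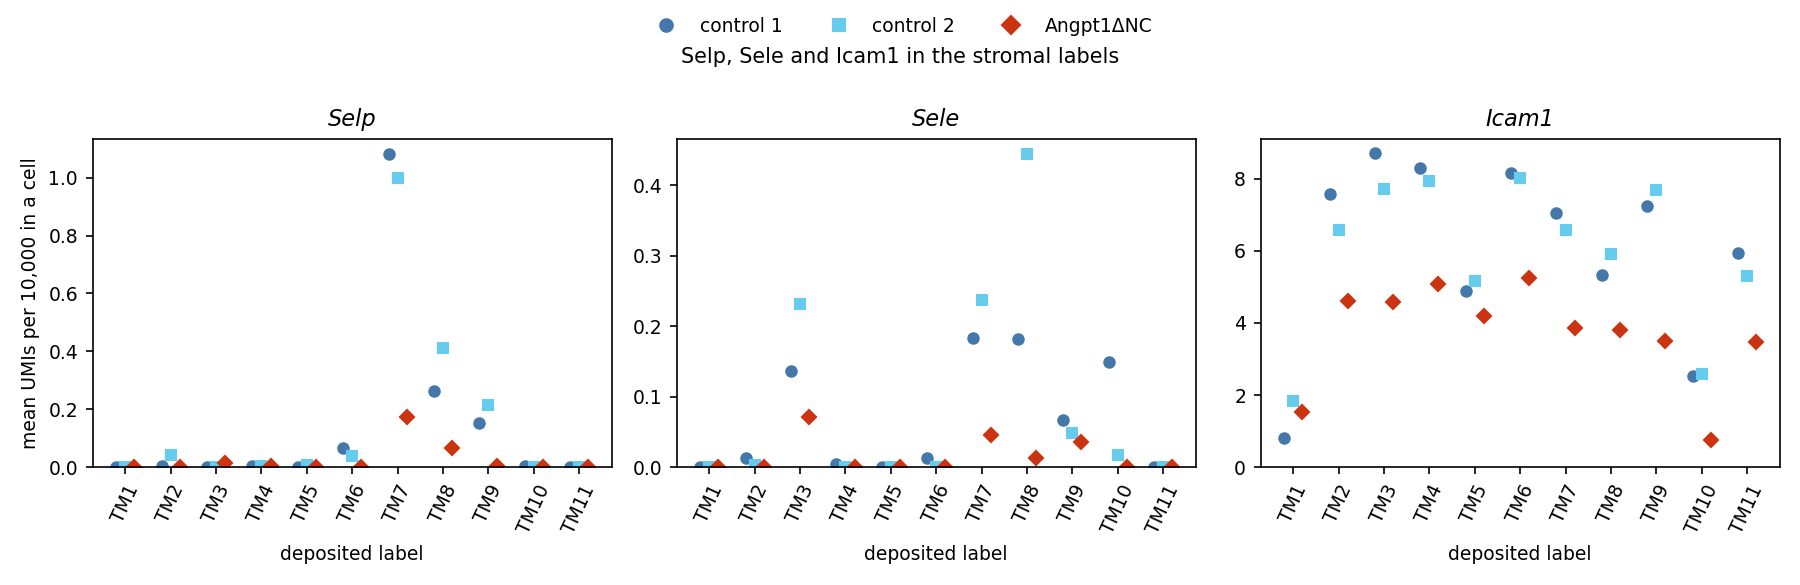
Levels of Selp, Sele and Icam1 (vertical axes, mean over cells of UMIs per 10,000, a separate scale for each gene) in the 11 stromal labels (horizontal axis), with a point for each library. Selp is seen in TM7 at 1.08 and 1.00 in controls and 0.174 in Angpt1ΔNC, and Icam1 of Angpt1ΔNC lies below both controls in every label but TM1.

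The rest of the adhesion cascade was read from 5 lists of 65 genes, of which 50 were tested in endothelium. Of these 14 rose and 4 fell, with a median log2 fold change of 0.22 beside -0.02 over all 9660 genes, of which 8.12% rose and 4.82% fell. Chemokines that can be shown to leukocytes held 8 of these 18 calls, with 6 of 9 higher and 2 lower and a median of 0.81. Cxcl2 and Cxcl1, which draw neutrophils, rose by 2.13 and 0.92, the interferon-induced Cxcl9 by 1.84, Cxcl12 by 1.09, and the membrane-bound Cxcl16 and Cx3cl1 by 0.81 and 0.66, while the monocyte chemokines Ccl2 and Ccl7 fell by 2.76 and 1.16. In SC this list had 1 gene higher (Cxcl9, 2.15) and 3 lower, Cxcl10 with -3.57, Ccl2 with -3.13 and Ccl7 with -3.53, and a median of -1.15 beside -0.04 over all genes, of which 1.81% rose and 1.22% fell. Cxcl9 rose in each of SC, EC2, EC3 and EC4.

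Among genes of inflammatory input 4 of 13 rose in endothelium and none fell (median 0.30). They were the TNF receptor Tnfrsf1b (1.52), the IL-1 receptor Il1r1 (1.06) and Tnfaip3 (0.83) and Nfkbia (0.54), inhibitors that NF-kappaB itself induces. Of 11 genes for Weibel-Palade content and release 3 rose and none fell (median 0.15): Edn1, the vasoconstrictor endothelin-1 (1.33), Igfbp7 (0.78) and Angpt2, the antagonist of Angpt1 (0.53). Igfbp7 and Edn1 rose in SC, EC2 and EC4, where the log2 fold changes of Edn1 were 2.60, 1.19 and 1.61. Of 15 other adhesion and transmigration proteins 1 rose, the junction gene Jam2 (0.73), and 2 fell, the sialomucin Emcn (-0.87) and the fenestral diaphragm gene Plvap (-0.66). Of the leukocyte counter-receptors 2 were tested and neither passed. Leukocyte markers summed to at most 1.19 per 10,000 in SC, EC2, EC3 and EC4, with the T cell gene Cd3e at 0 in all of them. In EC4 of Angpt1ΔNC the other 5 of the 6 leukocyte markers were detected, as they were in EC3 of control 1. Their sum in EC4 was 0.998 in Angpt1ΔNC, between the 1.19 and 0.408 of the controls. All 6 macrophage markers were detected in EC4 of Angpt1ΔNC, summing to 0.994 against 0.201 and 0.126 in EC4 of the controls. Their part in the Vcam1 rise in EC4 was not tested. In the 3 LEC cells of control 1 leukocyte markers summed to 7.53 and macrophage markers to 26.4. In stroma 56 of the 65 were tested, 3 rose and 6 fell, with a median of -0.19 beside -0.01 over all genes. Over all genes 3.46% rose and 5.52% fell, so these counts are small ones and nothing is read from them about the lists. Those that fell were F11r (-1.16), Emcn (-1.19), Irf1 (-1.33), Nfkb1 (-0.59), Il1r1 (-0.64) and Cxcl9 (-0.80), and those that rose were Ccl5 (2.54), Ccl2 (0.68) and Tnfrsf1b (0.68). All these calls are by edgeR's main fit with an adjusted p under 0.05, and they are not given under the alternatives. Over all genes DESeq2 called fewer, 257 against 1250 by edgeR in endothelium and 45 against 194 in SC.

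The genes most like each member were found by Pearson correlation of log2 levels (0.1 added) over 103 pools of 1 label in 1 library, among 14742 genes. The pools share libraries and depth, so these are descriptions. Over all labels Selp and Sele were each other's nearest gene (r = 0.89). Over the 12 pools of SC, EC2, EC3 and EC4 alone, where the contrast of endothelium with other cells is absent, Sele was only the gene at rank 213 for Selp (0.77), and Selp stood at 0.86 with Vcam1 and -0.91 with Icam2. The values that follow are over all labels. Selp was followed by the interferon-induced Gbp9 (0.84) and by Lrg1 (0.82), and Sele by the transcription factor Lhx6 (0.89), Gbp4 (0.83) and Vwf (0.83). Lhx6 was also the gene nearest to Vwf (0.91), before Mctp1 and Mecom (both 0.90). Icam2 and Pecam1 kept to pan-endothelial genes, Icam2 to Adgrl4 and Mmrn2 (both 0.97) and Pecam1 to Cdh5 and Rasip1 (both 0.96). Icam1 had no close neighbour, with Chst2, Itga5 and Ptprk at 0.75, and Vcam1 was nearest to the stromal genes Igfbp4 (0.78) and Fgfr1 (0.75). Icam1 and Vcam1 were at 0.68 with each other, while Vcam1 stood at -0.03 with Icam2 and -0.06 with Pecam1. Ackr1 was nearest to Cadm3 (0.58), the gene it overlaps.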

How the data were processed

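Single-cell RNA of the limbal and iridocorneal region was captured on the 10x Genomics Chromium, and the deposited matrices hold raw UMI counts per gene and cell, made by the authors with Cell Ranger on mm10 (2.1.1 in the submitters' processing notes, 3.0.2 in the matrix header). The authors kept cells with at least 200 genes, at least 1000 UMIs and at most 10% mitochondrial reads, removed doublets with scDblFinder and clustered integrated values with Seurat 3.1.3. Their deposited cluster labels were used and their integrated values were not.

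Levels are the mean over cells of UMIs per 10,000. For genotype, counts were summed per class and library and tested with edgeR 4.0.16 (quasi-likelihood, TMM factors, filterByExpr, R 4.3.3) and Benjamini-Hochberg adjustment at 0.05, with DESeq2 1.42.0 as an alternative. The standard errors given with edgeR values are the absolute log2 fold change over the square root of the test's F statistic. The edgeR test was tried on simulated counts of endothelium and EC2, where the Angpt1ΔNC library was drawn with the spread of the controls. This cannot show how far Angpt1ΔNC pools vary. No test was run between labels. Members and lists were chosen with earlier results of these data known. Members are named throughout, and cascade genes by their level or where called. Coordinates are of GENCODE M21 on GRCm38. Other alternatives were RLE factors, no filter, equal cells and each control left out.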

Additional observations from a re-analysis of the deposited data

Results flagged for a closer look

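Several members moved in opposite directions in different endothelial labels, with the Angpt1ΔNC library above both controls in one label and below both in another. The difference between labels was not tested in any case, and with 1 Angpt1ΔNC library each value rests on that library. All values are log2 fold changes of Angpt1ΔNC over control.

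Selp was 1.44 in SC and 0.67 in EC3, and -0.35 in EC2. Sele was 0.65 in SC, and -0.77 in EC2, -0.86 in EC3 and -1.59 in EC4. Icam1 was 0.82 in SC, 0.83 in EC2 and 0.63 in EC3, and -1.58 in EC4. Icam2 was 0.23 in EC2 and 0.18 in EC3, and -0.49 in SC. Pecam1 was 0.56 in EC3 and -0.54 in EC2. The Selp value in EC2 was 0.23 without control 2. Of these, the test within the label was passed by Selp in SC, by Icam1 in EC2, EC3 and EC4 and by Pecam1 in EC3.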

How the results depend on the processing

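Of 218 tests of members under alternatives, 191 kept their direction and side of the threshold, 17 lost and 3 gained the call, and 7 turned direction. In cells with Cdh5 and Cldn5, Selp in endothelium was -0.68 and Ackr1 -6.79, the latter against an Angpt1ΔNC library with 0 UMIs and thus no bound. Vcam1 in stroma was 0.82 in TM7 alone and 0.71 in TM8 alone. The other 3 passed in neither fit: Vcam1 in SC was -0.16 with equal cells, and Pecam1 in SC -0.04 without a filter and -0.10 without Ccl21a cells. The cause was not tested. Of 93 fold changes with 1 control left out, 30 moved by more than their standard error and 10 took the other sign or came to 0.00, among them Selp in EC2 (0.23), Vcam1 in EC2 (-0.29) and Vwf in EC4 (-0.25). None of the 10 had passed the test, and no test could be made with 1 library on each side. With labels weighted equally 3 of 16 took the other sign, Icam2 (-0.05) and Pecam1 (-0.08) in endothelium and Vwf in stroma (0.18). No paired analysis was possible because there was 1 Angpt1ΔNC library and the labels give no pairing of libraries.

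The number of genes called with DESeq2 was 257 in endothelium (1250 by edgeR), 45 in SC (194), 20 in EC2 (252), 121 in EC3 (581), 85 in EC4 (201), 636 in stroma (1251) and 431 in clusters 4 and 5 (706). In EC2 the share of calls that were higher was 40.0% with DESeq2 and 62.7% with edgeR. In SC 118 were called with equal cells and 29 without Ccl21a cells. In EC4 382 were called with RLE factors, 504 without a filter, 497 with equal cells and 553 without the highest Vcam1 cells. In stroma 2441 were called without a filter, 600 with equal cells, 545 in TM7 and 344 in TM8, and in clusters 4 and 5 1814 without a filter. Without a filter the median log2 change of all genes in SC was -0.43, against -0.04.

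Thinned to 2000 UMIs, mean shares of positive cells were 65.7% for Selp in SC (81.0% unthinned), 28.9% for Sele in SC (53.2%), 64.1% for Icam1 (89.5%), 42.8% for Icam2 (83.2%) and 71.3% for Pecam1 (95.5%) in EC3, 23.9% for Vcam1 in SC (51.4%) and 33.3% for Vwf in EC2 (75%). Sele was then found in 30.6% of SC cells with Selp (53.5%) and 50% of such EC2 cells (85.7%). The Icam2 level in EC3 was 2.21 from summed counts (2.61 as a mean over cells). Depth and 15 Angpt1ΔNC SC cells limit what can be said of Vwf and Ackr1 there.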

Other observations

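Selectin and Vwf transcripts were also met in cells of other clusters. Selp was found in 10.5% of cluster 23 cells in Angpt1ΔNC and in 1.43% and 1.41% in controls. Vwf was found in cluster 8 with up to 5, 4 and 6 UMIs in a cell, and in cluster 9 at a mean level of 0.0807 per 10,000.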
